A study of Mus musculus with 6 samples.

Results

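The ATP-binding cassette (ABC) genes of mouse were examined in immortalized fibroblasts (MF). Members were all genes of the deposited table whose symbol has the form Abc, a subfamily letter from a to g, a number and, in some, a further letter, and 45 of 19078 genes qualified. A search of GENCODE M21 found 50 protein-coding genes with such symbols, and *Abca15*, *Abca17*, *Abcb5*, *Abcg3* and *Abcg8* were not analysed here. ABC genes with symbols of another form, such as *Cftr*, *Tap1* and *Tap2*, are not members. The counts and shares of the family and its subfamilies below leave them out. Poly(A) RNA was sequenced from 3 libraries of *Ms4a15* OE cells and 3 libraries of control cells, and both groups were grown in DMEM with serum and antibiotics. The *Ms4a15* OE cells are a pooled line in which a lentiviral guide recruits a CRISPR activation system to *Ms4a15*, and the control cells are wild type by their label and carry an empty lentivirus by the study's methods. The parental cells of both groups are embryonic fibroblasts with a conditional *Gpx4* deletion and a Cre-ERt2 recombinase. Nothing in the labels says that the libraries of a group came from separate cultures.

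Each gene was represented by the authors' mean over the 6 libraries of read counts divided by each library's size factor, which is the mean normalized count. This mean covers both groups together, so the values below describe the cells of the study as a whole. The difference between *Ms4a15* OE and control was not analysed here, and no SD, interval or test between libraries could be given. Because each group supplies 3 of the 6 libraries, neither group's own mean can be over 2 times the mean of all, which limits how high a weakly detected gene can be in either group. Levels of different genes were compared per kb of exons, the mean normalized count divided by the length of all annotated exons of the gene merged, whereas shares of counts and the minimum of 10 are on the scale of counts, where a longer gene draws more reads. A gene was counted as expressed at a mean normalized count of at least 10.

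ABC proteins bind and hydrolyse ATP through a conserved nucleotide-binding domain. Most use it to move lipids, bile salts, drugs, peptides, metals or conjugated metabolites across membranes, either as single-chain transporters that are complete in 1 protein or as dimer-forming transporters that must pair. The Abce and Abcf proteins have no membrane domain and act on ribosomes. In fibroblasts the family is best known for cholesterol efflux through *Abca1* and for drug and glutathione-conjugate export through the Abcb1 and Abcc1 pumps.

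Fibroblast markers were all expressed, and so were some markers of other cells. All 11 fibroblast markers were expressed, with mean normalized counts from 278 for *Pdgfra* to 135155 for *Col1a2*. Of the markers of other cells, 1 of 6 epithelial, 1 of 3 hepatocyte, 2 of 5 endothelial, 1 of 5 alveolar type 2 and 1 of 2 striated muscle markers in the table reached 10. The full lists held 7 epithelial, 6 hepatocyte, 6 leukocyte and macrophage and 5 striated muscle markers, and the rest were not among the genes used. All 5 leukocyte and macrophage markers in the table reached 10, from 11.1 for *Ptprc* to 534 for *Lyz2*. This minimum was reached by 67.7% of all genes, so passing it says little about cell type. Per kb of exons, 10 of the 11 fibroblast markers were at or above the median of expressed genes. Of the leukocyte and macrophage markers 1 of 5 was, and of the other lists 0 were. *Ms4a15* itself had a mean normalized count of 638 over the 6 libraries. The means of all genes added up to 40991755 normalized counts. In bulk RNA, fewer cells that express a gene and less RNA per cell cannot be told apart.

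The share of ABC genes that were expressed was near that of all genes in the table. Of the 45 members, 29 (64.4%) reached a mean normalized count of 10, beside 67.7% of all genes of the table. The other 16 were below 10, and 7 of these were below 1, which is 15.6% of members beside 16.2% of all genes. Between these ends, 9 members had means from 1 to under 10, 8 from 10 to under 100, 6 from 100 to under 1000, 11 from 1000 to under 10000, and 4 had at least 10000. Per kb of exons, 11 of the 29 expressed members were at or above the median of expressed genes, 277 normalized counts per kb. By definition, as many expressed genes lie above that median as below it. In the top 10% were 3 of the 29, beside 10% of all expressed genes by definition.

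**Figure D1:**
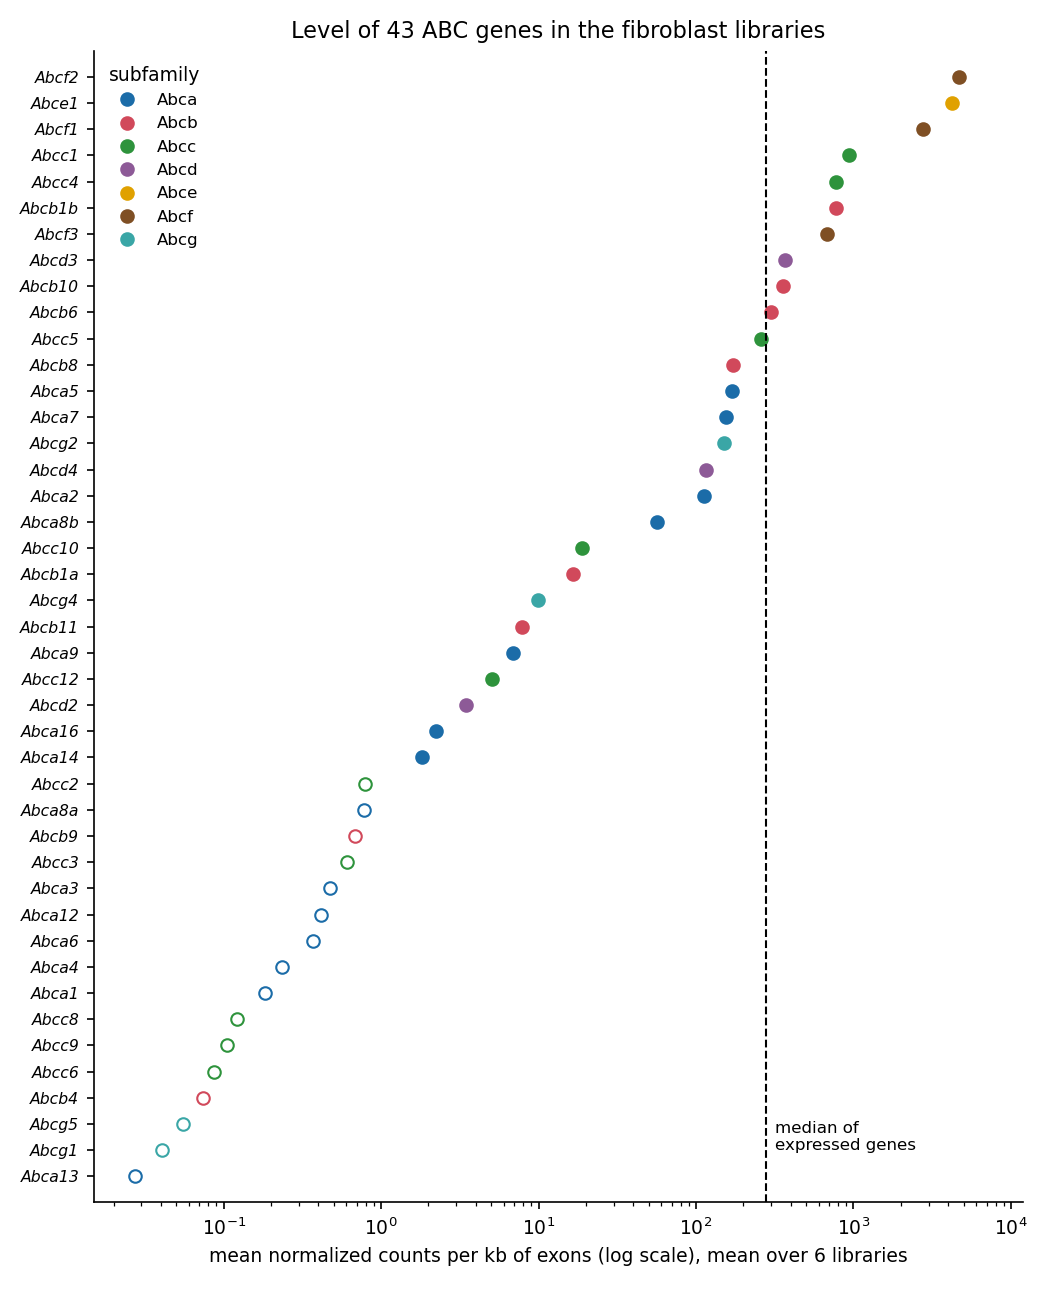
Mean normalized counts per kb of exons (log axis) of 43 ABC genes, ordered by level and coloured by subfamily, with open circles for the 16 members whose mean normalized count was under 10. Each point is the authors' mean over the 6 libraries, so no error bars are drawn; the dashed line is the median of expressed genes, 277, and 10 of the genes drawn lie at or above it.

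The ribosome-acting members stood at the top. *Abcf2*, related to the yeast ribosome assembly factor Arb1, had a mean normalized count of 12107 and 4713 normalized counts per kb, the highest level of the family on this scale. *Abce1*, the ATPase that splits ribosomes after termination, had a mean normalized count of 25211 and 4199 normalized counts per kb. The order of both turned when the length was taken from the longest transcript, with 6647 normalized counts per kb for *Abce1* and 4713 for *Abcf2*, or from the coding sequence, with 14029 and 6426. *Abcf1*, which binds initiation factor eIF2, had a mean normalized count of 12111 and 2746 normalized counts per kb. These levels put *Abcf2*, *Abce1* and *Abcf1* at percentiles 96.9, 96.5 and 94 of expressed genes. *Abcf3*, the relative of yeast Gcn20, was lower, with a mean normalized count of 2412 and 678 normalized counts per kb, percentile 72.9. The 4 genes took 53.9% of the family's normalized counts, although they are 4 of 45 members. Genes of related processes were expressed as well. All 9 of 9 listed genes of ribosome recycling and translation control were at or above the median per kb. The lowest, *Eif2ak4*, had 288 normalized counts per kb, close to the median of 277. Among these were the termination factors *Etf1* with 4985 and *Gspt1* with 3166 normalized counts per kb, and the rescue factor *Pelo* with 403.

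The family as a whole drew 0.234% of all normalized counts. Among the 41 transporters, *Abcc1* alone held 31.7% of the counts, and *Abcc1*, *Abcb1b* and *Abcc4* together held 56.7%. These 3 export drugs, conjugates or signalling nucleotides from the cell.

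**Figure D2:**
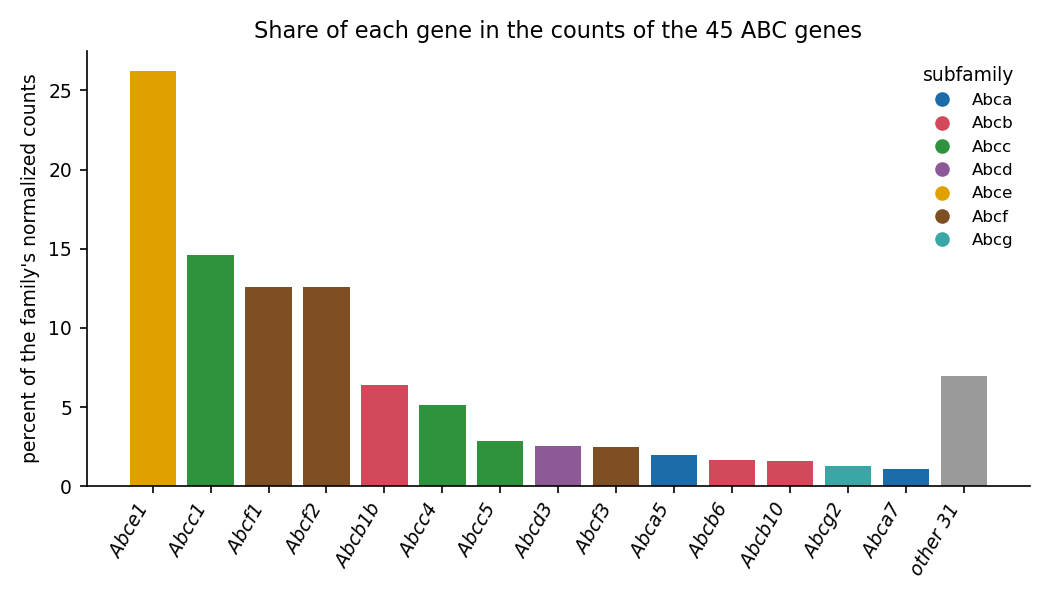
Percent of the family's summed mean normalized counts (axis from 0) held by each of 14 ABC genes with at least 1%, coloured by subfamily. The grey bar holds the other 31 genes, including those whose values are not reported here, whatever their share. *Abce1* held 26.2% and *Abcc1* 14.6%, and the other 31 genes together held 6.97%.

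**Figure D3:**
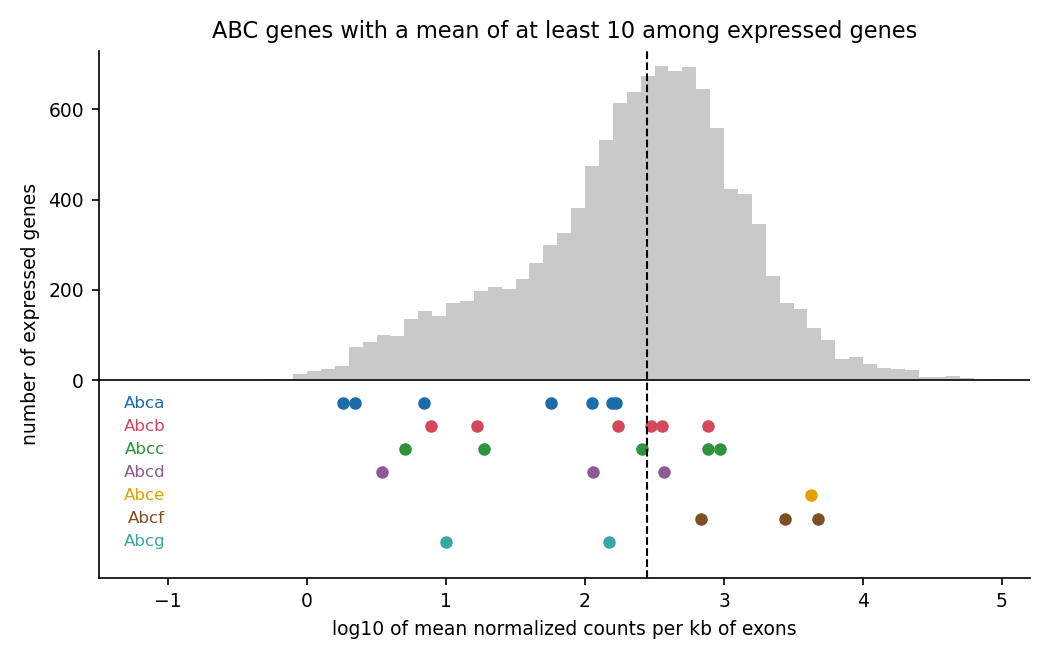
Number of expressed genes (grey histogram, 11725 genes with a length) by log10 of the mean normalized count per kb of exons, with 27 of the expressed ABC genes as dots by subfamily below the axis. The dashed line is the median of expressed genes; all Abce and Abcf dots lie above it, and all Abca and Abcg dots below it.

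The Abcc subfamily, with its conjugate and nucleotide exporters, ran from genes well above the median of expressed genes to genes with hardly a read. *Abcc1*, the multidrug resistance protein that exports glutathione conjugates and leukotriene C4, had a mean normalized count of 14057 and 931 normalized counts per kb. *Abcc4*, which exports cyclic nucleotides and prostaglandins, had a mean normalized count of 4918 and 770 normalized counts per kb. *Abcc5*, another exporter of cyclic nucleotides, had a mean normalized count of 2761 and 259 normalized counts per kb, just under the median of expressed genes, but it lay above the median per kb of the longest transcript. *Abcc10* and *Abcc12* were lower, with mean normalized counts of 129 and 33.4 and levels of 18.7 and 5.03 normalized counts per kb. *Abcc2* and *Abcc3*, exporters of conjugates in hepatocytes, had mean normalized counts of 6.78 and 3.48. *Abcc6*, needed for ATP release from liver, had 0.498 and a level of 0.087 normalized counts per kb, so that neither group's mean could be over 0.996. *Abcc8* and *Abcc9*, the sulfonylurea receptor subunits of ATP-sensitive potassium channels, had mean normalized counts of 0.978 and 0.88. In all, 5 of 10 Abcc genes were expressed and 2 were at or above the median per kb of merged exons, or 3 per kb of the longest transcript.

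Genes that make and use glutathione were mostly well expressed beside these exporters. Of 17 listed genes, 16 had a mean normalized count of at least 10 and 14 were at or above the median per kb. *Gsto1*, a glutathione transferase, had 7456 normalized counts per kb, and *Gclc*, the catalytic subunit of glutamate-cysteine ligase, had 1214. *Slc7a11*, the cystine importer, had 506 normalized counts per kb. The gene that was not expressed was *Ggt5*, a glutamyl transferase of the cell surface, with a mean normalized count of 0.339. *Gsta4* and *Ggt7* were expressed but below the median, with 81.9 and 141 normalized counts per kb.

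In the Abcb subfamily the drug pumps differed sharply. *Abcb1b*, a P-glycoprotein gene, had a mean normalized count of 6145 and 769 normalized counts per kb, percentile 75.8 of expressed genes. Its duplicate *Abcb1a* had a mean normalized count of 90.8 and 16.6 normalized counts per kb. *Abcb4*, the neighbour that moves phosphatidylcholine into bile, had a mean normalized count of 0.696, so that neither group's mean could be over 1.39. *Abcb11*, the bile salt export pump of hepatocytes, had a mean normalized count of 40.4 and 7.84 normalized counts per kb.

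The coding sequences of *Abcb1a* and *Abcb1b* were 88% identical, the closest pair in the family, and the level of *Abcb1b* was 46.4-fold that of *Abcb1a* per kb of exons and 67.7-fold per kb of coding sequence. Of the windows of 100 bases along the annotated transcripts, 13.4% of those of *Abcb1a* also occurred in another gene, mostly in *Abcb1b*, and 6.61% of those of *Abcb1b* did. The longest run of coding bases without a difference was 338 bases, from base 1357 to 1694 of *Abcb1a*, which is longer than the reads of 150 bases that the labels give. A read pair that lies wholly within such a stretch cannot be assigned to 1 of both genes, and how the counting treated such pairs is not given in the sources used here. The windows of 100 bases are shorter than the reads, so the shares above can overstate how many read pairs are ambiguous. The 60 coding bases with the most differences between them, 25, are shown because reads from there tell both genes apart (bases 1913 to 1972 of *Abcb1a* and 1922 to 1981 of *Abcb1b*, GENCODE M21 transcripts, 5′ to 3′, with the differing bases in capitals).
Abcb1a: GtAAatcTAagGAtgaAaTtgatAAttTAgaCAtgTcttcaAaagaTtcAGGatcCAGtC
Abcb1b: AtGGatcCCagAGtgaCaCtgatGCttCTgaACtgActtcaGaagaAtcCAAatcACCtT

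The mitochondrial dimer-forming Abcb transporters were more even. *Abcb10*, of the inner membrane and tied to heme synthesis, had a mean normalized count of 1544 and 359 normalized counts per kb, *Abcb6*, linked to porphyrin transport, had 299 and *Abcb8* had 172 normalized counts per kb. These 3 lay within a 3-fold span. *Abcb6* is uncertain, since 45.2% of its transcript windows also occur, on either strand, in transcripts of the locus *Gm29253*. Of the windows of *Abcb10*, 5.61% occur in those of the locus *Gm45890*. Of 13 listed genes of mitochondrial iron-sulfur cluster and heme synthesis, all 13 were expressed and 10 were at or above the median per kb. Their mean normalized counts ran from 576 for *Ppox* to 7999 for the glutathione carrier *Slc25a39*. *Abcb9*, a dimer-forming peptide transporter of lysosomes, had a mean normalized count of 3.80.

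*Abcb9* is related to the TAP peptide transporters *Tap1* and *Tap2*. These are ABC genes too, but the symbol rule leaves them out of the members. The peptide loading genes, with both of them, were therefore read beside *Abcb9*. *Tap2* had 101 normalized counts per kb, whereas *Tap1*, with which it pairs, had 0.0649. The immunoproteasome subunits *Psmb8* and *Psmb9* had 0.193 and 0.0446 normalized counts per kb, and *Psmb10* had 1240. *B2m*, the light chain of MHC class I, had 52930 normalized counts per kb. Among the 12 listed genes, 9 were expressed and 8 were at or above the median per kb. *Tap1*, *Psmb8* and *Psmb9*, the 3 that were not expressed, had mean normalized counts of 0.355, 0.651 and 0.163, which puts the upper limit of either group's mean at 0.71 for *Tap1*, 1.30 for *Psmb8* and 0.326 for *Psmb9*.

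The lipid transporters of the Abca subfamily lay low per kb of exons. Of 14 members, 7 were expressed and 0 reached the median per kb. Without division by length 1 reached the median of expressed genes. With no minimum 2 reached the median per kb of all genes. *Abca5*, of late endosomes and lysosomes, was highest per kb, with a mean normalized count of 1923 and 168 normalized counts per kb. *Abca7*, a phospholipid exporter, had 155 and *Abca2*, a lysosomal lipid transporter known from myelinating cells, had 112 normalized counts per kb. *Abca8b* followed with 56.9, *Abca9* with 6.89, and *Abca16* and *Abca14*, known from testis, with 2.23 and 1.81 normalized counts per kb. *Abca1*, the exporter of cholesterol and phospholipid to apolipoprotein A-I, had a mean normalized count of 1.89 and 0.183 normalized counts per kb, so that in neither group could its mean be over 3.78. Its closest relative, *Abca7*, with the 155 normalized counts per kb given above, is 63.1% identical in coding sequence and had a mean normalized count of 1049. The other members under 10 were *Abca12*, of skin lipid transport, with 6.17, *Abca8a* with 4.87, *Abca3*, of lung surfactant, with 4.42, *Abca4*, of photoreceptors, with 2.83, *Abca6* with 1.98 and *Abca13* with 0.539 as mean normalized counts. The level of *Abca13*, 0.0273 normalized counts per kb, was the lowest of the family. Of the windows of *Abca3*, 6.65% also occur in another gene, mostly *D330041H03Rik*.

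The sterol exporters of the Abcg subfamily were low in the same way. *Abcg1*, which moves cholesterol to high-density lipoprotein, had a mean normalized count of 0.297 and 0.0407 normalized counts per kb, and its relative *Abcg4*, 72.5% identical in coding sequence, had 52 and 9.98. *Abcg5*, one chain of the intestinal and biliary sterol exporter, had 0.151, or 0.904 normalized counts summed over the 6 libraries, close to the smallest mean in the table, 0.147. *Abcg2*, a drug and urate exporter, was the highest of these 4 per kb, with a mean normalized count of 1219 and 149 normalized counts per kb.

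Genes of sterol and phospholipid handling were otherwise expressed. Of 19 listed genes, 18 had a mean normalized count of at least 10, beside 67.7% of all genes. At or above the median per kb were 10, near the even split that a median gives by definition. *Npc2*, a lysosomal cholesterol carrier, had 3003 normalized counts per kb, the lipoprotein receptor *Scarb1* had 1195, and *Srebf2*, the regulator of sterol synthesis, had 1406. Of the liver X receptors, which induce *Abca1* and *Abcg1* in many cells, *Nr1h2* had 342 and *Nr1h3* 5.13 normalized counts per kb. *Apoa1*, the acceptor protein made by liver and intestine, had a mean normalized count of 0.69.

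All 4 Abcd genes, dimer-forming transporters, were expressed, with levels over 100-fold apart. *Abcd3*, which brings branched fatty acids and bile acid precursors into peroxisomes, had a mean normalized count of 2420 and 367 normalized counts per kb. *Abcd4*, which acts in lysosomal export of cobalamin, had 115 normalized counts per kb. *Abcd2*, an importer of very long chain fatty acids, had a mean normalized count of 20.7 and 3.48 normalized counts per kb. Of 15 listed genes of peroxisomal import and fatty acid oxidation, 12 were expressed and 5 were at or above the median per kb. *Pex5*, the import receptor, had 1049 and *Hsd17b4*, a bifunctional oxidation enzyme, had 808 normalized counts per kb. *Ehhadh*, *Acaa1b* and *Slc27a2* had mean normalized counts of 2.70, 0.335 and 0.366.

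**Figure D4:**
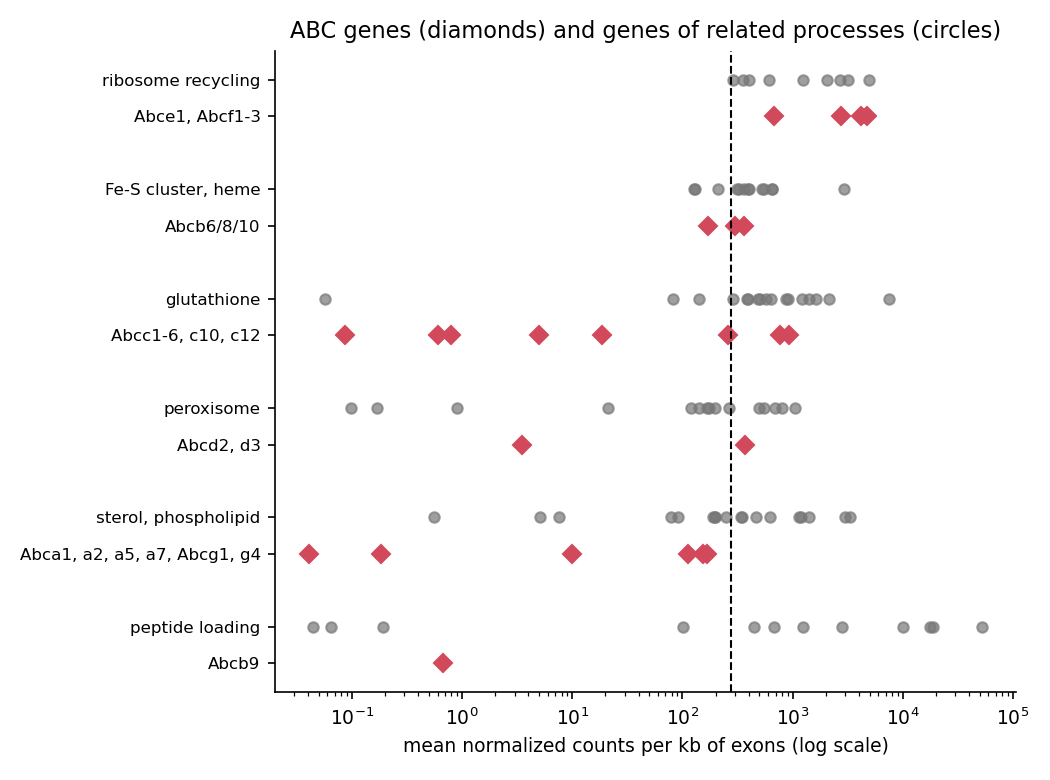
Mean normalized counts per kb of exons (log axis) of ABC genes (red diamonds) under the listed genes of a related process (grey circles), 1 point per gene, with the median of expressed genes as the dashed line. The ribosome genes of both kinds all lie right of the line, while *Abcg1* and *Abca1* are the leftmost points of their pair of lines.

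In both longer runs of neighbouring members, levels differed widely from gene to gene. With gaps of at most 500 kb, 18 members formed 7 runs (coordinates in GRCm38). On chromosome 5, *Abcb1a* (8660077 to 8748575), *Abcb1b* (8798147 to 8866315) and *Abcb4* (8893717 to 8959231) follow each other on the plus strand. Their levels were 16.6, 769 and 0.0742 normalized counts per kb, the middle gene being the high one. On chromosome 11, *Abca8b*, *Abca8a*, *Abca9*, *Abca6* and *Abca5* lie from 109932190 to 110337716, all on the minus strand. Both outer genes of this run were the highest, with 56.9 for *Abca8b* and 168 for *Abca5*, and the 3 between them had 0.776, 6.89 and 0.368 normalized counts per kb. *Abca8a* and *Abca8b* were 73.8% identical in coding sequence and 73.4-fold apart per kb of exons, with *Abca8b* higher. Here the longest run without a difference was 97 bases, and none of their windows of 100 bases occurred in another gene. The stretch of 60 coding bases with the most differences, 34, is shown because it separates this pair (bases 3261 to 3320 of each, GENCODE M21 transcripts, 5′ to 3′, with the differing bases in capitals).
Abca8a: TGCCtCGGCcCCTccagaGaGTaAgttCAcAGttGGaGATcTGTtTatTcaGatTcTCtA
Abca8b: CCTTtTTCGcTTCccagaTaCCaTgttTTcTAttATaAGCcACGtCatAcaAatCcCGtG

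**Figure D5:**
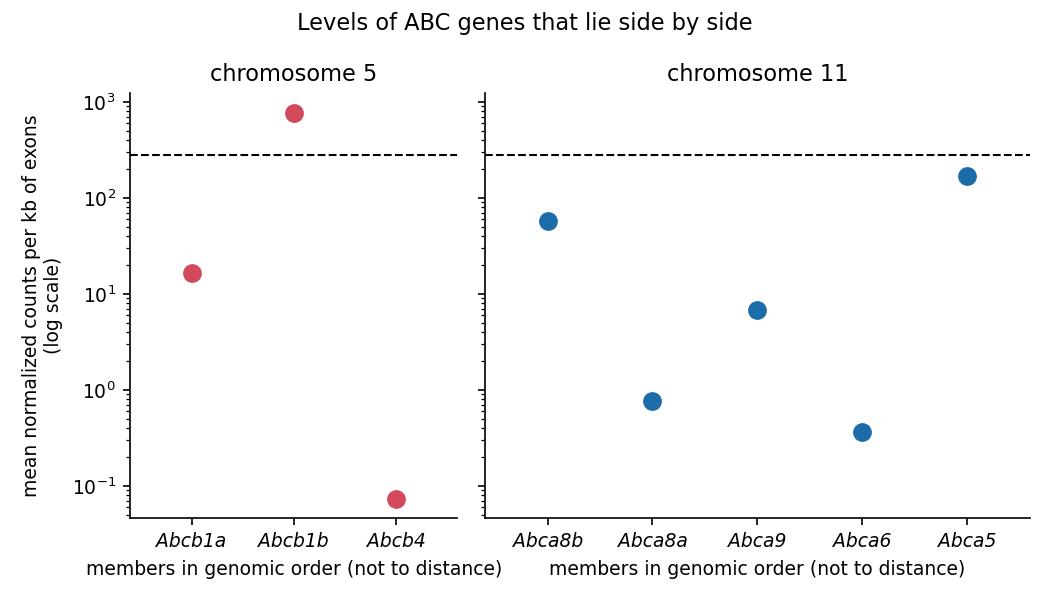
Mean normalized counts per kb of exons (log axis) of the ABC genes in the runs on chromosomes 5 and 11, 1 point per gene in genomic order and not to distance, with the median of expressed genes as the dashed line. *Abcb1b*, at 769, is above the line between *Abcb1a* and *Abcb4*, while *Abca8b* and *Abca5* are the highest of the run on chromosome 11.

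The other runs were pairs. *Abcd3* and *Abca4* on chromosome 3 had 367 and 0.235 normalized counts per kb, and *Abcb8* and *Abcf2* on chromosome 5 had 172 and 4713. *Abcc5* and *Abcf3* on chromosome 16 had 259 and 678 normalized counts per kb. On chromosome 7, *Abcc6* and *Abcc8* had 0.087 and 0.121, and *Abca14* and *Abca16* had 1.81 and 2.23 normalized counts per kb, so both pairs were low. *Abcc6* and *Abcc8* had only 2.99 and 5.87 normalized counts summed over the 6 libraries, too few to compare their levels.

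By architecture, 15 of 28 single-chain transporters were expressed and 3 were at or above the median per kb, whereas 10 of 13 dimer-forming transporters were expressed and 4 were at or above it, or 2 of 13 per kb of coding sequence, where 3 of 28 single-chain transporters were. The medians of the level were 2.02 and 115 normalized counts per kb. The single-chain group holds all Abca and Abcc genes, and the dimer-forming group all Abcd and Abcg genes, so architecture and subfamily cannot be told apart except in the Abcb genes. There 3 of the 4 single-chain genes and 4 of the 5 dimer-forming genes were expressed, with *Tap1* and *Tap2* left out by the symbol rule. At or above the median were 1 and 3 per kb of exons, but 1 and 1 per kb of coding sequence. With no spread between libraries, levels as close as those of *Abcc4* and *Abcb1b*, or of *Abcd3* and *Abcb10*, cannot be put in order.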

How the data were processed

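RNAseq of 3 *Ms4a15* OE and 3 control libraries of mouse fibroblasts was used. Per the labels, the libraries were strand-specific, poly(A)-selected and read as 150-base pairs. The study's methods name the STAR aligner, the assembly mm10 with UCSC knownGene, and HTSeq-count, whereas the submitters' processing notes list TopHat, Cufflinks, Cuffdiff, HTSeq and DESeq2 beside mm10, and the methods give a shorter read length and another library guide than the labels. The strand setting of the counting is not given in the sources used here. The signal in the table the authors deposited is the mean over the 6 libraries of counts divided by the size factors of the authors' DESeq2 analysis. The deposited table also holds the authors' log2 fold changes with standard errors, p-values, adjusted p-values and direction for *Ms4a15* OE against control, which are the authors' own comparison and were not used. The table has no columns of single libraries, so the planned count test between groups was not run, the depth of each library is unknown and no interval was computed.

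Levels per kb used merged exons of GENCODE M21 (GRCm38), which matched 16182 of 19078 genes, 14655 by symbol and 1527 by a RefSeq synonym, and 11725 of 12914 genes (90.8%) whose mean was 10 or more. Genes in the table under 25 symbols turned into calendar dates were left as they stood. All transcript windows of 100 bases were compared on both strands, and 187 pairs of coding sequences within subfamilies were aligned with Biopython 1.88 in Python 3.11.15. Listed pairs were aligned over at least 90% of the longer sequence. The window comparison, the alignment and the percentiles were tested on made-up input with known answers. The check of levels per kb could not fail by its form, so it did not test them. The alternatives were a minimum mean of 1 or 100, no minimum, and division by the longest transcript, by coding length or by no length. Values of some genes are not reported here, although they enter the counts and medians. The text accounts for every other member, with mean and level for those reported of the 10 highest per kb, for the ends of each subfamily and for the closest paralogs, *Abcb1a* and *Abcb1b*. Partner genes and markers came from fixed lists, and the 2 channel pores that pair with *Abcc8* and *Abcc9* were not among the genes used. Members and lists were chosen with earlier results of these data known.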

Additional observations from a re-analysis of the deposited data

How the results depend on the processing

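The 3 counts over the family stayed within 1.5 times of the value given under every alternative run. The number of expressed members, 29, became 38 at a minimum mean of 1 and 21 at 100. The number at or above the median, 11, was 11 per longest transcript, 9 per coding length, 13 without division by length, 16 against all genes with no minimum and 9 at a minimum of 100. Of the 10 highest members, 9, 10 and 9 were among the 10 highest per longest transcript, per coding length and without length, with *Abcc5* in place of *Abcb10* in both cases of 9. Per coding length *Abcb10* and *Abcb6* fell under the median, and per longest transcript *Abcb10* fell under it and *Abcc5* rose above it. The number of dimer-forming transporters at or above the median, 4, was 3 per longest transcript, 2 per coding length, 4 without length, 6 with no minimum and 2 at a minimum of 100, and that of single-chain transporters, 3, was 4, 3, 5, 6 and 3. *Abce1* was above *Abcf2* in all 3 of these orders. The level of a single expressed member moved by over 1.5 times in 7 of 29 cases per longest transcript and in 21 of 29 per coding length, the merged exons of *Abcc1* being 2.22 times its longest transcript. No paired analysis was possible because the values used are means over all libraries. For the same reason the planned edgeR test of the groups was not run, nor were its alternatives with DESeq2, without a filter, with a replicate block or without single libraries, and limma on FPKM was not run. Members with a mean under 1 rest on a few reads in all, and nothing about a difference between the groups can be read from them.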
